A study of Homo sapiens with 12 samples.

Results

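The AlkB family of dioxygenases was followed in NOMO-1 cells, a human acute myeloid leukaemia line of monocytic type. The 6 members ALKBH5, FTO, ALKBH2, ALKBH3, ALKBH6 and ALKBH7 were taken by name from the 9529 genes in the deposited table. All 6 were in the table and all 6 were tested. The homologues ALKBH1, ALKBH4 and ALKBH8 were not analysed here.

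The knockdown cells carried shALKBH5, 1 of 2 lentiviral short hairpins against ALKBH5, and the control cells carried a non-targeting hairpin (shNS). Both were transduced in the same way, selected with puromycin, and exposed to actinomycin D, a drug that blocks transcription, for 0, 8 or 12 h before poly(A) RNA was sequenced. This gave 12 libraries in 6 groups of 2, namely shALKBH5 at 0, 8 and 12 h and shNS at 0, 8 and 12 h. Each shALKBH5 group held 1 library of each hairpin, marked D or E in the table. The sources used here do not say which of the hairpins is D, so the pair is called line D and line E. The shNS libraries are replicates 1 and 2, and nothing says that they came from separate cultures. One protocol among the labels speaks of virus directed at FTO, whereas the sample titles name ALKBH5, so the level of both genes bears on the labels.

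AlkB dioxygenases use iron, oxygen and 2-oxoglutarate to oxidise methyl groups on nucleic acids or proteins, which removes the group or modifies the protein. ALKBH5 and FTO remove N6-methyladenosine (m6A) from RNA, and both are known in acute myeloid leukaemia as demethylases on which leukaemic cells depend. ALKBH2 repairs methylated bases in double-stranded DNA and ALKBH3 does so in single-stranded DNA and in RNA. ALKBH7 is a mitochondrial protein needed for programmed necrosis after alkylation damage, and ALKBH6 is little characterised.

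The genes lie apart in the genome (GRCh38, GENCODE release 29). ALKBH5 occupies chr17:18183078-18209954 on the plus strand, FTO chr16:53701692-54158512 on the plus strand, ALKBH2 chr12:109088188-109093631 on the minus strand and ALKBH3 chr11:43880811-43920266 on the plus strand. ALKBH6 lies at chr19:36009120-36014239 on the minus strand and ALKBH7 at chr19:6372433-6375251 on the plus strand of the same chromosome. ALKBH6 is covered on its own strand by the processed transcript AC002116.1, so reads of the pair cannot be told apart, and its values are uncertain for that reason. The annotated genes that overlap ALKBH5, FTO, ALKBH3 and ALKBH7 are mostly antisense to them, and none of the overlapping genes was analysed here.

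In m6A, the letters GGACT are the best known form of the consensus at which the methyl group is placed, and they show where ALKBH5 and its relatives carry such letters in their own messages. The motif GGACT was searched on the transcript strand of 1 coding transcript per gene. ALKBH5 holds 4 copies in 2748 bases, 2 in the coding part and 2 in the 3′ untranslated part. In the windows of 29 bases below, from exons of the 3 genes on which the results turn, the capitals mark the motif.
ALKBH5, coding, chr17:18184417-18184445, plus strand: caagtatcaggaGGACTcggaccccgagc
ALKBH5, coding, chr17:18208327-18208355, plus strand: cgagtcctcagaGGACTgctctgaggcag
ALKBH2, coding, chr12:109092576-109092604, minus strand: ggctgagggcctGGACTgcagttacacag
ALKBH3, coding, chr11:43889799-43889827, plus strand: cctggaaacagaGGACTggcatcagagag
ALKBH3, coding, chr11:43901608-43901636, plus strand: gaaggacagcgtGGACTggcacagtgatg
Of the 8752 genes with a coding transcript, 91.2% hold the motif at least once, so its presence does not set these genes apart. Its density differed more. ALKBH7 held 3.003 copies per kilobase and ALKBH5 1.46, against a median of 0.935 over all these genes, whereas FTO held 0.425 in a transcript of 11766 bases, of which 10026 are 3′ untranslated. Methylation was not measured in these libraries, and a match is a description of letters only.

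The deposited values are an expression signal that was apparently scaled to the ERCC spike-ins, RNAs added to each sample, since their median over 46 RNAs kept to a range of 29.9 to 33.1 while the summed gene signal did not hold steady. The gene total was 945067 to 953211 in shALKBH5 and 826000 to 937164 in shNS at 0 h, and 143765 to 186750 in shALKBH5 and 167376 to 193639 in shNS at 12 h. Signals are therefore read per unit of spike-in, less RNA per cell and fewer cells cannot be told apart, and levels are compared within a gene only. Read depth is unknown. Of 12 myeloid markers, 9 were in the table, and their summed signal was 1646 to 2165 in shALKBH5 against 1267 to 1361 in shNS at 0 h, 859 to 1323 against 846 to 941 at 8 h, and 492 to 503 against 352 to 390 at 12 h. The erythroid and epithelial markers were not analysed here. The markers did not move together: across times 3 of the 9 rose (ITGAM, CD68 and LYZ) and 1 fell (PTPRC, by 0.51, limma adjusted p 0.0303). Between the lines, the log2 difference of line D over line E was -2.26 for CD74 and 1.82 for ITGAM. The part of these marker differences in the results below was not tested.

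**Figure D1:**
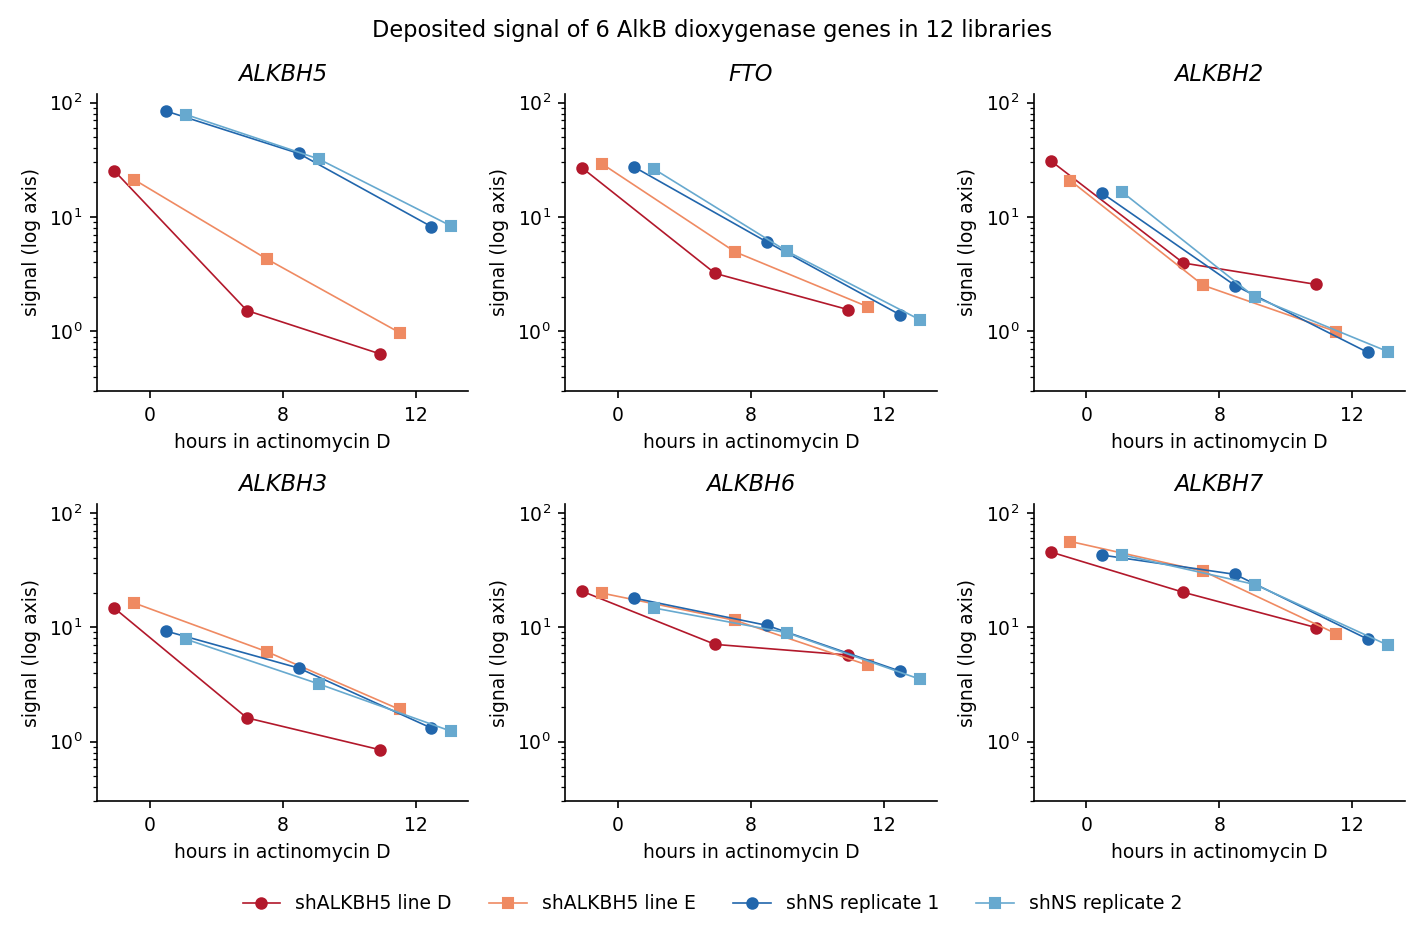
Deposited signal per spike-in unit (log axis) of the 6 genes by hours in actinomycin D (categories, not to scale), with shALKBH5 lines D and E left of shNS replicates 1 and 2. ALKBH5 is the gene in which both knockdown lines lie below both shNS replicates at every time, while all 6 genes decline with time per spike-in unit. With median-of-ratios scaling, which removes a fall common to all genes, ALKBH6 and ALKBH7 rise relative to that fall in both arms. In shNS ALKBH3 and, at 8 h, ALKBH5 then change sign, to 0.21 or less, and are not called.

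ALKBH5, the targeted demethylase, was strongly reduced in both knockdown lines at every time, and FTO was not. At 0 h ALKBH5 had a signal of 25.4 in line D and 21.2 in line E, against 84.3 and 78.6 in shNS replicates 1 and 2. At 8 h it had 1.52 in line D and 4.29 in line E, against 35.9 and 32.1 in shNS. By 12 h the signals were 0.636 in line D and 0.973 in line E, against 8.22 and 8.30 in shNS. The groups did not overlap at any time, and the direction matches the ALKBH5 hairpin of the titles. The share of all genes whose signals do not overlap between the arms was not counted, for ALKBH5 or for the genes below.

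Relative to the shNS mean of the same time, line D kept 31.2% of ALKBH5 at 0 h, 4.47% at 8 h and 7.70% at 12 h. Line E kept 26.0% at 0 h, 12.6% at 8 h and 11.8% at 12 h. Thus line E was the lower one at 0 h and line D the lower one at 8 and 12 h. The late values sat close to the bottom of the table: line D was 2.02 times the lowest gene of its column at 8 h and 1.47 times at 12 h, against 5.03 and 2.88 times in line E, so the later percentages are imprecise.

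Values were tested as log2(signal + 1) with limma, and a gene was called where its Benjamini-Hochberg adjusted p over all 9529 genes lay under 0.05. ALKBH5 fell by 1.77 at 0 h (SE 0.29, limma adjusted p 0.0202, lower in 2 of 2 lines) and was the only member called, 1 of 6, while 1.47% of all genes were called. At 8 h ALKBH5 fell by 3.26 (SE 0.29, limma adjusted p 0.000312), the lowest value among the 9529 genes, and 1 of 6 members was called against 4.93% of all genes. At 12 h it fell by 2.37 (SE 0.29, limma adjusted p 0.00534), with 1 gene lower, and 1 of 6 members was called against 1.02% of all genes. In the model across times ALKBH5 fell by 2.46 (SE 0.21, limma adjusted p 1.01e-06), again the lowest of all genes, and 2 of 6 members were called, where 21.1% of all genes were.

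The 0 h call rests on few libraries. It was lost at adjusted p 0.268 without shNS replicate 1 at 0 h, 0.176 without shNS replicate 2 at 0 h, 0.109 without line D at 0 h, and 0.0556 and 0.0552 without shNS replicates 1 and 2 at 8 h, while the estimate stayed between -1.89 and -1.64. The 12 h call was lost at adjusted p 0.106 and 0.0815 without shNS replicates 1 and 2 at 12 h. Across times ALKBH5 was called in 21 of 21 alternatives.

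**Figure D2:**
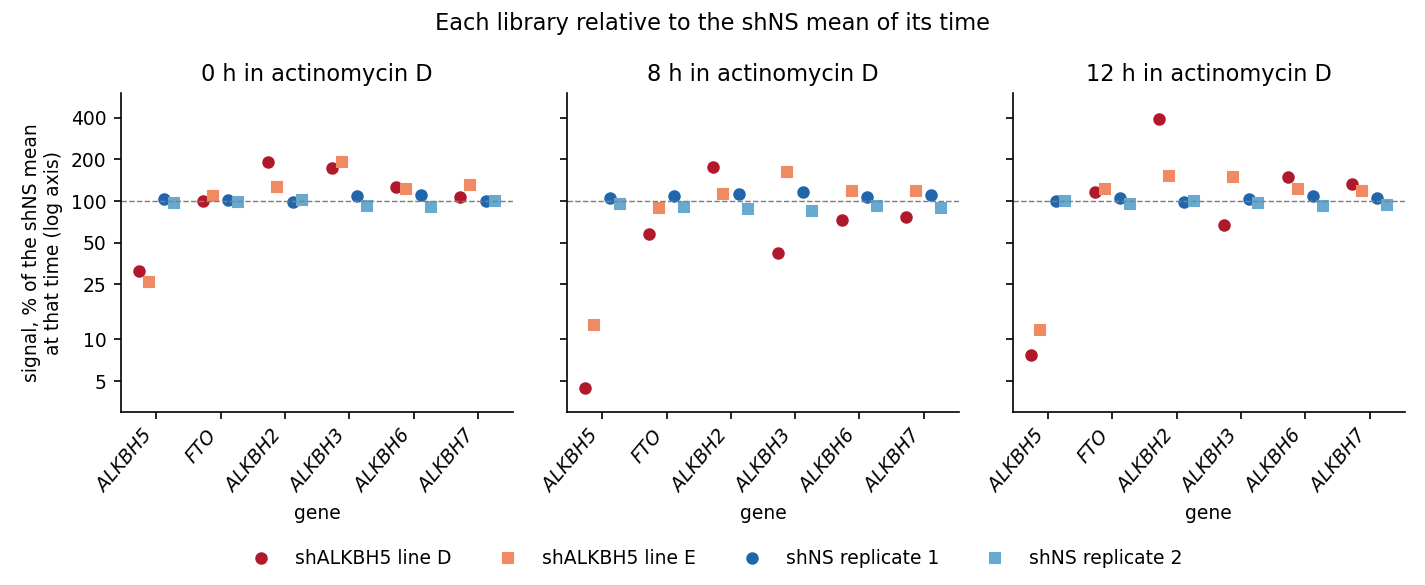
Signal of each library as a percentage of the shNS mean at the same time (log axis, dashed line at 100%), for the 6 genes at 0, 8 and 12 h, with shALKBH5 lines left of shNS replicates. ALKBH5 lies at 4.47% to 31.2% in the knockdown lines, and ALKBH2 in line D reaches 390% at 12 h.

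FTO, the other m6A demethylase and the gene named in the treatment protocol, did not differ from shNS past the threshold in any comparison that used both lines at every time. At 0 h FTO had 26.7 in line D and 29.04 in line E, against 27.3 and 26.2 in shNS replicates 1 and 2. At 8 h it had 3.21 in line D and 4.95 in line E, against 6.04 and 5.01 in shNS, and at 12 h 1.55 and 1.64 in lines D and E against 1.40 and 1.26 in shNS. Line D stood lowest at 8 h, with 58.1% of the shNS mean, and both lines stood highest at 12 h, with 116% and 123%. The differences were small and did not pass: the log2 change was 0.06 at 0 h (SE 0.20, limma adjusted p 0.899, 95% interval -0.38 to 0.49), -0.38 at 8 h (limma adjusted p 0.249), 0.15 at 12 h (limma adjusted p 0.728) and -0.06 across times (SE 0.13, limma adjusted p 0.796, 95% interval -0.34 to 0.22). These intervals leave room for a change of modest size in either direction. Without line E at 8 h the FTO change there was -0.63, with line D as the only knockdown library at that time. With line D alone throughout, the FTO change was -0.63 at 8 h, and the 8 h difference of change was -0.63. The spread in these fits does not come from the knockdown libraries at 8 h, so no call is read from them.

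Of the DNA and RNA repair enzymes, ALKBH2 stood higher in the knockdown, mainly in line D. At 0 h ALKBH2 had 31.0 in line D and 20.7 in line E, against 16.1 and 16.5 in shNS. At 8 h it had 3.95 in line D and 2.52 in line E, against 2.51 and 1.98 in shNS, and at 12 h 2.57 and 0.993 in lines D and E against 0.652 and 0.664 in shNS. Both lines lay above both shNS replicates at each of the 3 times, by the narrowest margin at 8 h, where line E and shNS replicate 1 differed by less than the spread between the shNS replicates. How many of all genes lay apart in this way was not counted. The median log2 change of all genes was 0.23 at 0 h, -0.23 at 8 h and 0.06 at 12 h. Relative to the shNS mean, line D had 191%, 176% and 390% at 0, 8 and 12 h, and line E had 127%, 112% and 151%.

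At single times ALKBH2 did not pass, with log2 changes of 0.61 at 0 h (SE 0.28, limma adjusted p 0.224), 0.37 at 8 h (limma adjusted p 0.425) and 0.69 at 12 h (limma adjusted p 0.228). Across times it rose by 0.55 (SE 0.15, limma adjusted p 0.0166), which treats the 3 libraries of a line as independent. The call was lost when each line or replicate was first averaged over the times, 2 against 2 (limma adjusted p 0.104), and stood with a correlation estimated within lines (limma adjusted p 0.0482). With line D alone the change across times was 0.87, and with line E alone 0.24. The median of all genes across times was 0.02.

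ALKBH3, which repairs single-stranded nucleic acid, moved in different ways in the 2 lines. At 0 h ALKBH3 had 14.7 in line D and 16.3 in line E, against 9.26 and 7.86 in shNS. At 8 h it had 1.61 in line D but 6.11 in line E, against 4.39 and 3.19 in shNS, and at 12 h 0.849 in line D and 1.91 in line E, against 1.31 and 1.23 in shNS. Line D thus lay above both shNS replicates at 0 h and below both at 8 and 12 h, whereas line E lay above both at each time. Line D had 172%, 42.5% and 66.9% of the shNS mean at 0, 8 and 12 h, and line E had 190%, 161% and 150%.

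Neither the 0 h difference, with a log2 change of 0.79 (SE 0.37, limma adjusted p 0.227), nor the one across times, 0.23 (SE 0.21, limma adjusted p 0.459), passed for ALKBH3. At 8 h the change was -0.14 with both lines (SE 0.37, limma adjusted p 0.837), -0.86 with line D alone and 0.58 with line E alone, a fit in which the lone library takes its spread from the remaining groups. Across times ALKBH3 was called without line D at 8 h, at 0.45 (limma adjusted p 0.0480), and with line E alone, at 0.60 (limma adjusted p 5.01e-08), where 24.3% and 42.1% of all genes were called.

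ALKBH6 lay between 73.3% and 149% of the shNS mean in the knockdown lines, and ALKBH7 between 76.8% and 134%. ALKBH6 had 20.6 in line D and 19.8 in line E against 17.9 and 14.7 in shNS at 0 h, 7.07 and 11.5 against 10.4 and 8.94 at 8 h, and 5.71 and 4.65 against 4.13 and 3.52 at 12 h. ALKBH7 had 45.5 in line D and 56.1 in line E against 42.7 and 42.9 in shNS at 0 h, 20.2 and 30.8 against 28.95 and 23.6 at 8 h, and 9.91 and 8.77 against 7.84 and 6.96 at 12 h. In both genes the knockdown lines lay above shNS at 0 and 12 h and on either side of it at 8 h. The log2 change at 0 h was 0.30 for ALKBH6 and 0.23 for ALKBH7, near the median of 0.23 over all genes. At 12 h it was 0.35 and 0.30, beside a median of 0.06. Across times the log2 changes were 0.19 for ALKBH6 (SE 0.14, limma adjusted p 0.355) and 0.16 for ALKBH7 (SE 0.14, limma adjusted p 0.448), and neither passed. Without line D at 8 h ALKBH6 was called at 0.30 (limma adjusted p 0.0486), where 24.3% of all genes were called. With line E alone ALKBH7 was called at 0.28 (limma adjusted p 0.0432), where 42.1% of all genes were called. Both fits count the libraries of a line as independent.

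**Figure D3:**
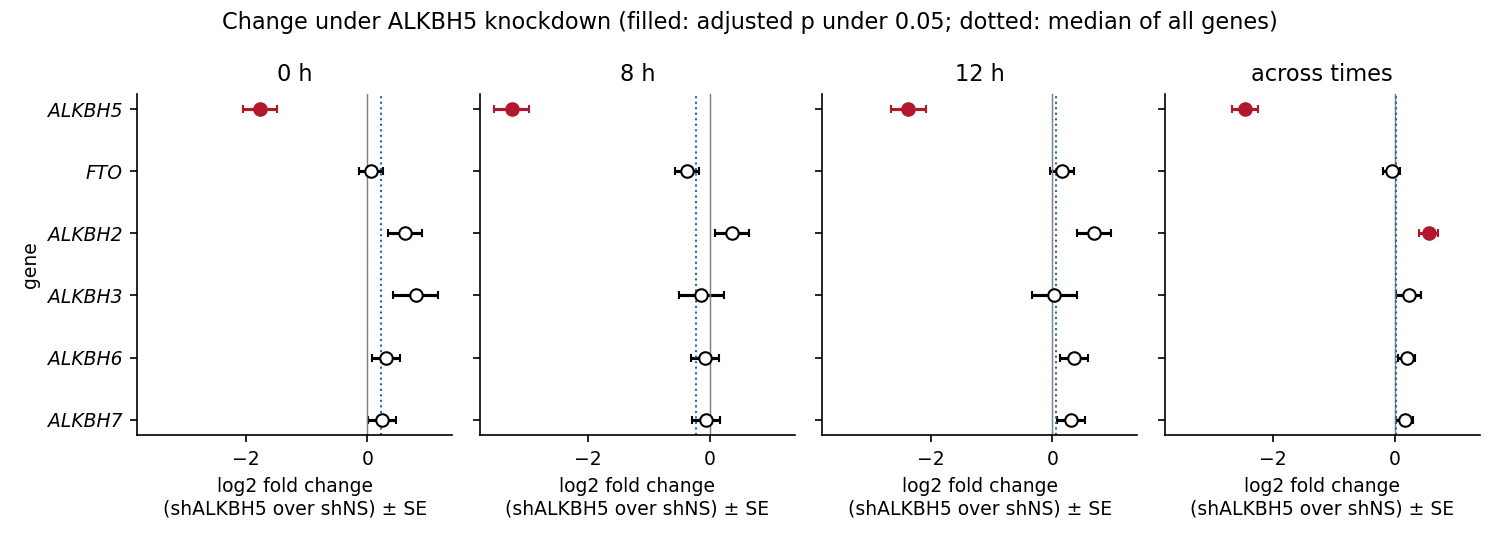
Log2 fold change of shALKBH5 over shNS (points) with its standard error (bars) for the 6 genes at 0, 8 and 12 h and across times, from limma on log2(signal + 1). Filled points passed an adjusted p of 0.05, and the dotted line is the median of all 9529 genes, which was 0.23 at 0 h, -0.23 at 8 h, 0.06 at 12 h and 0.02 across times.

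The lines themselves were set against each other over the 3 times. Of the 6 members, 2 differed between line D and line E, and 29.1% of all genes did. ALKBH2 was higher in line D than in line E by 0.63 (SE 0.17, limma adjusted p 0.00203), and ALKBH3 was lower in line D by 0.74, a log2 difference of -0.74 (SE 0.17, limma adjusted p 0.000153). The ALKBH3 call was lost at adjusted p 0.0557, with a difference of -0.39, when line D at 8 h was left out. ALKBH5 differed by -0.36 (SE 0.19, limma adjusted p 0.126), FTO by -0.22, ALKBH6 by -0.11 and ALKBH7 by -0.24, and these 4 did not pass. Without line D at 0 h ALKBH5 moved to -0.80 and was called (limma adjusted p 0.00024), as it was with a pseudocount of 0.1, at -0.57 (limma adjusted p 0.0230). These p-values treat the 3 libraries of a line as independent, although they share 1 hairpin and letter and deviated together. Hairpin and culture cannot be told apart here, since each line is 1 hairpin.

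In actinomycin D all 6 members fell per unit of spike-in in both arms. Median-of-ratios scaling removes a fall common to all genes, and relative to that fall ALKBH6 and ALKBH7 turned to a rise in both arms. In shNS ALKBH3 at 8 and 12 h and ALKBH5 at 8 h then changed sign and were not called. In shALKBH5, 6 of 6 members fell by 8 h, where 96.1% of all genes changed, and 6 of 6 fell by 12 h, where 99.6% did. In shNS, 6 of 6 fell by 8 h, with 82.2% of all genes called, and 6 of 6 by 12 h, with 99.5% called. These counts are close to the background and say nothing particular about the family. The median of all genes changed by -1.66 in shALKBH5 and -1.15 in shNS at 8 h, and by -2.80 in shALKBH5 and -2.56 in shNS at 12 h, so each member is best read against it.

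Percent left divides the signal at 8 or 12 h by the 0 h signal of the same line or replicate. It put ALKBH2 and FTO among the faster losses and ALKBH6 and ALKBH7 among the slower. At 8 h ALKBH2 kept 12.5% ± 0.40 in shALKBH5 and 13.8% ± 2.53 in shNS (SD, n = 2 each), and FTO kept 14.5% ± 3.56 in shALKBH5 and 20.6% ± 2.10 in shNS. At the same time ALKBH6 kept 46.1% ± 16.6 in shALKBH5 and 59.3% ± 2.11 in shNS, and ALKBH7 49.7% ± 7.48 in shALKBH5 and 61.4% ± 9.07 in shNS. The median gene kept 23.9% in line D and 33.6% in line E, against 42.2% and 41.1% in shNS replicates 1 and 2. ALKBH2 and FTO lay below this median, and ALKBH6 and ALKBH7 above it, in all 4 lines and replicates at 8 h.

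By 12 h ALKBH6 and ALKBH7 still kept more than FTO and ALKBH2 in both arms. In shALKBH5, ALKBH5 kept less than any of them, 3.54% ± 1.48, and in line D ALKBH3, at 5.76%, kept about as little as FTO. Within the pairs the order of the means turned, for ALKBH6 and ALKBH7 in both arms and for FTO and ALKBH2 in shALKBH5. There line D kept 5.79% of FTO and 8.28% of ALKBH2, whereas line E kept 5.64% and 4.79%. ALKBH6 kept 25.6% ± 3.04 in shALKBH5 and 23.5% ± 0.62 in shNS, ALKBH7 18.7% ± 4.36 in shALKBH5 and 17.3% ± 1.52 in shNS, FTO 5.72% ± 0.11 in shALKBH5 and 4.97% ± 0.21 in shNS, and ALKBH2 6.53% ± 2.46 in shALKBH5 and 4.04% ± 0.02 in shNS. The median gene kept 10.9% and 10.7% in lines D and E and 11.9% and 12.9% in shNS. At 8 h ALKBH6 and ALKBH7 differed from each other by less than the spread of their libraries in both arms. At 8 h too, FTO kept more than ALKBH2 in shNS by more than that spread, and in shALKBH5 by less.

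ALKBH5 was the member whose percent left set the arms furthest apart. At 8 h it kept 5.97% in line D and 20.2% in line E, against 42.5% and 40.9% in shNS replicates 1 and 2, and at 12 h 2.50% and 4.59% in lines D and E, against 9.74% and 10.6% in shNS. The groups did not overlap at either time, and neither did the medians of all genes. At 8 h the median gene kept 23.9% and 33.6% in lines D and E, against 42.2% and 41.1% in shNS. At 12 h it kept 10.9% and 10.7% in lines D and E, against 11.9% and 12.9% in shNS. The share of genes without overlap was not counted. In shNS ALKBH5 lay near the middle of the table at 8 h, with 50.5% and 49.6% of genes keeping less in replicates 1 and 2, and in the knockdown it lay lower, with 1.501% of genes keeping less in line D and 20.6% in line E.

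Tested as the difference of the 8 h change, knockdown minus shNS, ALKBH5 gave -1.49 (SE 0.40, unadjusted p 0.00296, limma adjusted p 0.299), beside a median of -0.48 over all genes. No member passed, 0 of 6, and neither did any gene, a background of 0%, while 1560 genes had an unadjusted p under 0.05. With the line as a replicate block for the knockdown libraries only, an alternative chosen after seeing the data because these libraries deviated together, ALKBH5 passed at limma adjusted p 7.32e-06 and ALKBH3, at -0.93, passed at 0.00832, among 2076 genes called. ALKBH5's difference was -2.15 with line D alone and -0.83 with line E alone. By 12 h the difference was -0.60 for ALKBH5 (SE 0.40, limma adjusted p 0.985), with 0 of 6 members and 0% of genes called, 337 genes at an unadjusted p under 0.05, and with the same block 0 members among 160 genes.

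ALKBH3's difference of change, -0.93 at 8 h (SE 0.52, limma adjusted p 0.310), came from line D, which kept 10.9% at 8 h where line E kept 37.5% and shNS 47.4% and 40.6%. The remaining 4 members gave -0.44 for FTO, -0.24 for ALKBH2, -0.38 for ALKBH6 and -0.30 for ALKBH7 at 8 h, all less negative than the median of all genes.

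**Figure D4:**
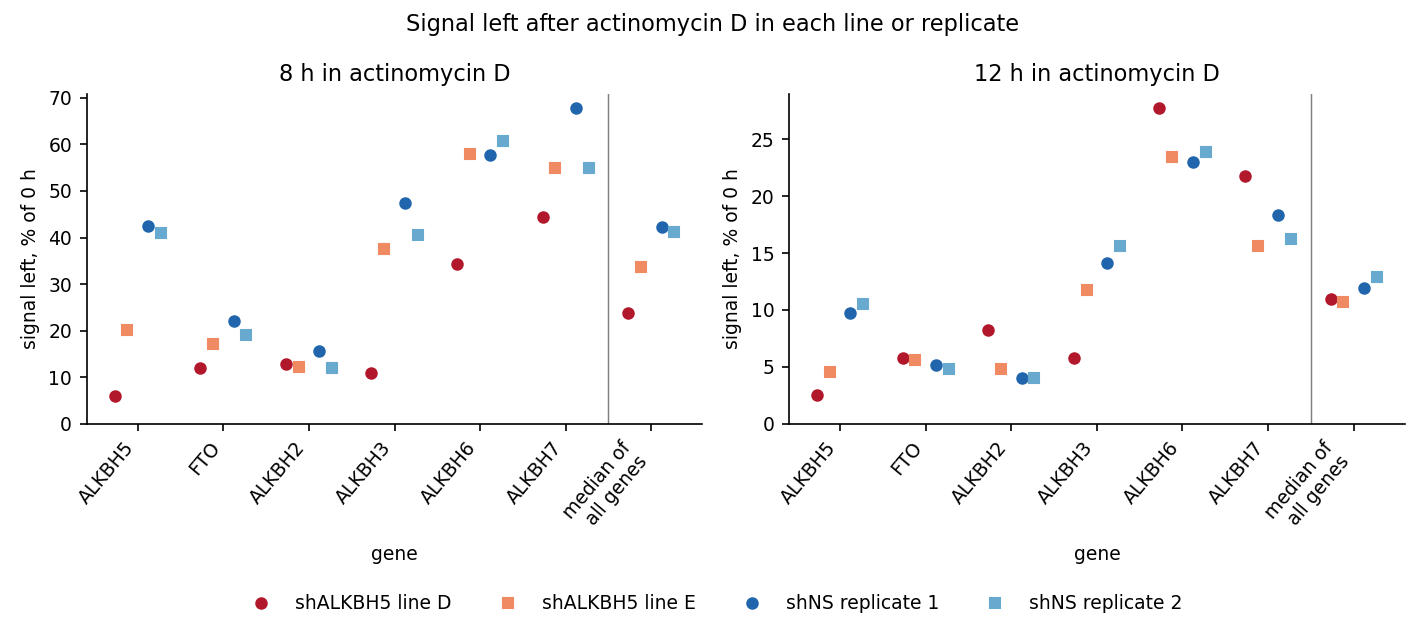
Signal left at 8 and 12 h as a percentage of 0 h in the same shALKBH5 line or shNS replicate, for the 6 genes and for the median of all genes (right of the grey line). ALKBH5 keeps 5.97% and 20.2% in lines D and E against 42.5% and 40.9% in shNS at 8 h, and FTO and ALKBH2 lie below the median gene there in all 4.

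The genes whose pattern over the 12 libraries was most like that of ALKBH5, after the mean of each time was subtracted, were SH3BP5, an inhibitor of the kinase BTK, with Pearson's r of 0.993, SLC2A1, the glucose transporter GLUT1, with 0.987, and FCGR2B, an inhibitory Fc receptor, with 0.986, out of 8067 genes with a mean signal of at least 5. These points share libraries and the knockdown contrast. SH3BP5 had 25.1 and 26.5 in lines D and E against 59.0 and 52.9 in shNS at 0 h, SLC2A1 had 25.8 and 21.7 against 48.3 and 44.7, and FCGR2B had 45.1 and 39.7 against 87.4 and 85.2. In all 3 genes the knockdown lines lay below shNS, as ALKBH5 did, which follows from their choice by likeness to it and is no separate result. For FTO the most alike were TNFRSF10B, a death receptor, with 0.968, STIM1, a calcium sensor of the endoplasmic reticulum, with 0.968, and TFB1M, a mitochondrial methyltransferase, with 0.964. Their changes across times were small, between -0.04 and -0.02, and none passed. These genes too were chosen by likeness, here to FTO, so this is no separate result.

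The neighbours of the members in the genome were read for comparison, taken as the nearest measured gene on each side, up to 385877 bases away. Across times IRX3, UNG, USP30 and SDHAF1 were called, where 21.1% of all genes were. Not called with the signal as deposited were AKTIP beside FTO (0.21), TTC17 (-0.40) and EXT2 (-0.20) beside ALKBH3, and THAP8 beside ALKBH6 (-0.13). CLPP (0.32) and GTF2F1 (0.23) beside ALKBH7 were not called either. DRG2 and LLGL1, on either side of ALKBH5, did not move with it, at 0.03 (SE 0.13) and -0.01 (SE 0.16) across times. IRX3, a homeobox gene on the far side of FTO whose regulatory elements lie within FTO introns, had 41.7 and 41.3 in lines D and E against 22.4 and 20.3 in shNS at 0 h, and rose by 0.93 there (SE 0.20, limma adjusted p 0.0461). UNG, the uracil DNA glycosylase 3942 bases from ALKBH2, had 81.9 and 44.4 in lines D and E against 31.9 and 30.4 in shNS at 0 h, and rose by 0.65 across times (SE 0.16, limma adjusted p 0.00897). USP30, a mitochondrial deubiquitinase 161 bases from ALKBH2 on its other side, fell by 0.36 across times (SE 0.11, limma adjusted p 0.0272). At 0 h USP30 had 7.06 and 6.59 in lines D and E against 8.96 and 7.62 in shNS. So of the pair around ALKBH2, UNG was, like ALKBH2, above shNS in both lines at 0 h, and USP30 was below it. All of ALKBH2, UNG and USP30 were higher in line D than in line E at 0 h. Between the lines 29.1% of all genes differed across times. SDHAF1, an assembly factor of succinate dehydrogenase next to ALKBH6, rose by 0.47 across times (SE 0.12, limma adjusted p 0.0110). IRX3 rose by 0.54 across times (limma adjusted p 0.0111). With each line averaged over the times first, the calls across times were lost for IRX3 (limma adjusted p 0.108), UNG (0.0913), USP30 (0.201) and SDHAF1 (0.129). With a correlation estimated within lines UNG stayed called (limma adjusted p 0.0339). The calls of IRX3 (0.0590), USP30 (0.122) and SDHAF1 (0.0643) were lost there too.

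Genes that act beside the family were counted from lists across times, where 11.9% of all genes were called higher and 9.14% lower. At 0 h, where 1.33% were called higher and 0.136% lower, 0 of 23 m6A writers and readers, 1 of 37 other oxygenases, 0 of 16 alkylation repair genes and 0 of 22 genes of 2-oxoglutarate metabolism were called. The single one, ASPHD1, a putative aspartyl hydroxylase, rose by 0.99 (SE 0.20, limma adjusted p 0.0399).

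Among the m6A writers and readers, a list of enzymes and proteins that place or bind methylated adenosine in RNA, 0 of 23 rose and 3 fell across times. Their median was -0.11 against 0.02 over all genes. IGF2BP2, an m6A reader, fell by 0.66 (limma adjusted p 0.00433), WTAP, a subunit of the writer complex, by 0.59 (limma adjusted p 0.0133) and PCIF1, which methylates the first nucleotide after the cap, by 0.58 (limma adjusted p 0.0301). IGF2BP2 had 20.9 and 26.7 in lines D and E against 33.8 and 28.9 in shNS at 0 h. WTAP had 72.7 and 60.8 in lines D and E against 72.1 and 65.2 in shNS at 0 h, and 7.11 and 8.21 against 17.8 and 14.9 at 8 h, so its groups overlapped at 0 h and not at 8 h. With a correlation estimated within lines 1 of the 23 fell, where 4.19% of all genes did, and with line averages 0 fell, where 2.42% did. With median-of-ratios scaling 7 fell and 1 rose, where 19.1% of all genes fell and 19.4% rose.

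At 8 h, where 0.42% of all genes were called higher and 4.51% lower, 0 of 23 writers and readers rose and 4 fell. METTL14, the partner of the methyltransferase METTL3, had 2.39 and 2.47 in lines D and E against 4.996 and 4.24 in shNS at 8 h. It fell by 0.71 (SE 0.18, limma adjusted p 0.0473), beside WTAP at -1.0003, IGF2BP2 at -0.93 and RBMX, a nuclear RNA-binding protein, at -0.81. Its call was lost with rescaling to the mean of the ERCC RNAs (limma adjusted p 0.0878), where 1 of the 23 fell, and stood with median-of-ratios scaling (limma adjusted p 0.0414), where 2 did. Of the other lists, 3 of 37 oxygenases, 1 of 16 repair genes and 1 of 22 metabolic genes fell at 8 h and 0 rose, whereas with median-of-ratios scaling 2 oxygenases rose and 0 repair genes fell. That scaling turned the 40 higher and 430 lower calls over all genes at 8 h to 367 higher and 322 lower.

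The other iron and 2-oxoglutarate oxygenases went both ways, 6 of 37 higher and 7 lower across times. P4HA1, a collagen prolyl hydroxylase, had 31.9 and 54.7 in lines D and E against 113 and 91.1 in shNS at 0 h, and fell by 1.77 across times (SE 0.23, limma adjusted p 7.42e-05). KDM3A, a histone demethylase, had 40.5 and 49.8 in lines D and E against 90.9 and 75.0 in shNS at 0 h, and fell by 1.23 (SE 0.14, limma adjusted p 2.87e-05). In both genes the lines lay below both shNS replicates. KDM4B, another histone demethylase, fell by 0.84 (limma adjusted p 0.0123), and ASPHD1 rose by 0.77 (limma adjusted p 0.000707). With a correlation estimated within lines 2 were called higher and 6 lower, where 5.45% and 4.19% of all genes were, and with line averages 1 higher and 4 lower, where 2.72% and 2.42% were.

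Of the alkylation repair genes, 2 of 16 rose and 1 fell across times. FEN1, the flap endonuclease, rose by 0.70 (limma adjusted p 0.00372) beside UNG, and MPG, the glycosylase that removes alkylated purines, fell by 0.54 (limma adjusted p 0.0129). FEN1 had 117 in line D and 64.9 in line E against 47.6 and 44.5 in shNS at 0 h, again with line D the highest. Of the genes of 2-oxoglutarate, succinate and fumarate metabolism, which make the cosubstrate and its products, 3 of 22 rose and 1 fell. SUCLG2, a subunit of succinyl-CoA synthetase, had 65.5 and 43.2 in lines D and E against 100.2 and 91.9 in shNS at 0 h, and fell by 1.32 (SE 0.18, limma adjusted p 0.000119), while IDH3A, IDH1 and GOT1 rose by 0.50, 0.45 and 0.45 (limma adjusted p 0.0272, 0.0395 and 0.0353). With a correlation estimated within lines FEN1, UNG and SUCLG2 were still called, while the calls of MPG (limma adjusted p 0.0626), IDH3A (0.0934), IDH1 (0.127) and GOT1 (0.118) were lost. With line averages 0 of the repair genes were called and, of the metabolic genes, only SUCLG2.

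**Figure D5:**
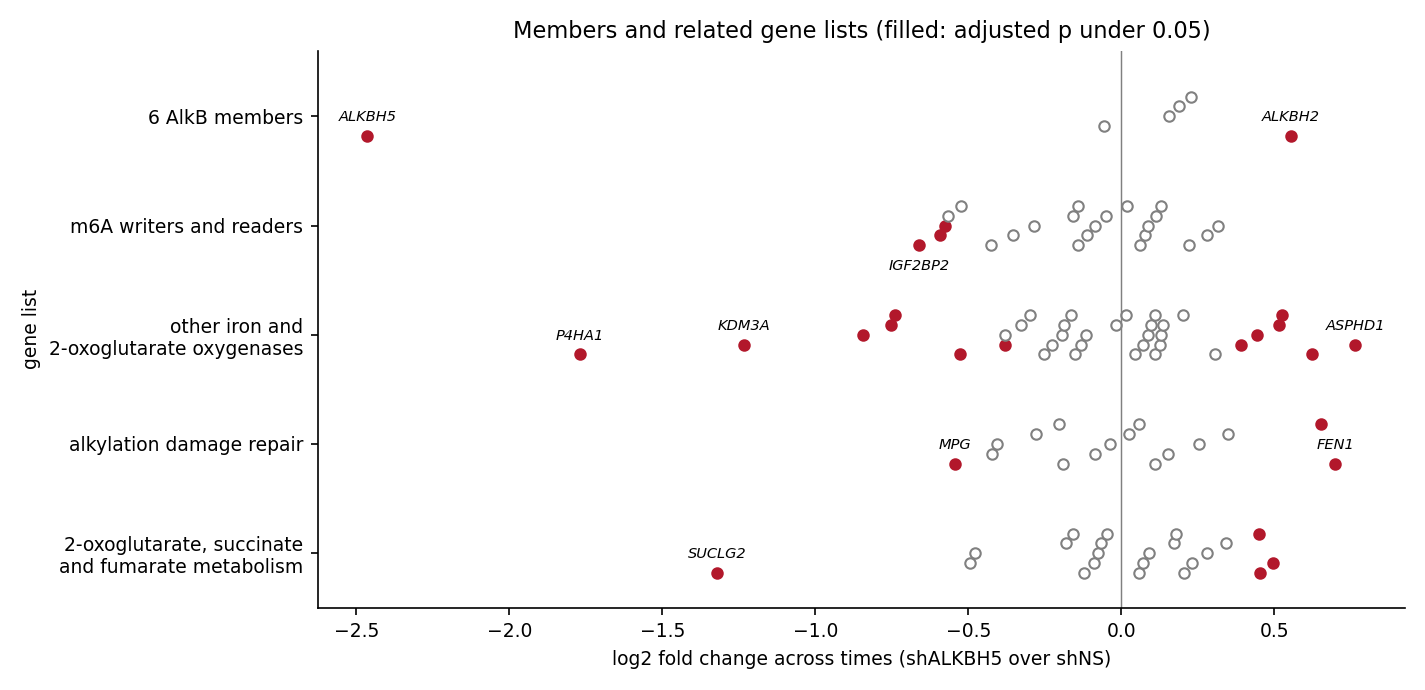
Log2 fold change across times (shALKBH5 over shNS) of the 6 AlkB members and of each gene of 4 related lists, 1 point per gene, filled where the limma adjusted p was under 0.05. ALKBH5 at -2.46 lies below every gene of the lists, of which P4HA1 at -1.77 is next.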

How the data were processed

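Poly(A) RNA of 12 libraries was measured with a stranded kit, per the labels' protocols. STAR, RSEM and the build GRCh38 are named in the submitters' processing notes, without versions. The authors deposited 1 table of an expression signal per gene symbol, whose unit before scaling is not given. Of the symbols, 9144 of 9529 were found in GENCODE release 29, which gave coordinates and, for 8752 genes, a transcript. Sequences come from that release and its transcripts.

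The deposited signal was tested as log2(signal + 1), with no filter, in R 4.3.3 with limma 3.58.1 (mean-variance trend, empirical Bayes, Benjamini-Hochberg adjustment). Contrasts at each time, changes over time and their differences came from a model of 6 group means, and additive models of time with knockdown or line gave those across times. The lowest mean of a gene was 1.30. The procedure was tested on simulated data.

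Deviations from the group means correlated between times at 0.777, 0.657 and 0.900 in the knockdown lines, which share a hairpin and a column letter, and at 0.271, 0.065 and 0.138 in shNS, so that a number pairs the knockdown libraries only. The spread behind each p-value is that between libraries. In shNS it may be technical only. In the knockdown groups it includes the difference between lines D and E, except where the model holds a term for the line.

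Named were the 6 members, up to 4 called genes per list, the 3 genes most like ALKBH5 and FTO, and genomic neighbours. The members and lists were chosen with earlier results of these data known. Alternatives were a pseudocount of 0.1, a mean of at least 5, 2 rescalings, no trend, blocks, each line alone, line averages and leaving out each library.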

Additional observations from a re-analysis of the deposited data

Results flagged for a closer look

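ALKBH2 and ALKBH3 were flagged because the knockdown lines differed in them. They are 2 of 6 members, where 29.1% of all genes differed, so the count is near the background. With median-of-ratios scaling, 52.9% of all genes differed. In line D relative to line E, ALKBH2 was higher by 0.63 on the log2 scale (limma adjusted p 0.00203), with 31.0 against 20.7 at 0 h, 3.95 against 2.52 at 8 h, and 2.57 against 0.993 at 12 h. It was higher in line D at all 3 times, and it was called in 17 of 17 alternatives. In the same order, ALKBH3 differed by -0.74 (limma adjusted p 0.000153), with 14.7 against 16.3 at 0 h, 1.61 against 6.11 at 8 h, and 0.849 against 1.91 at 12 h. It was lower in line D at all 3 times and was called in 16 of 17 alternatives. ALKBH5 differed by -0.36 and was not called, but it was called in 2 of the alternatives, at -0.80 without line D at 0 h (limma adjusted p 0.00024) and at -0.57 with a pseudocount of 0.1 (limma adjusted p 0.0230). FTO, ALKBH6 and ALKBH7 were not called in any of their alternatives. The p-values treat the 3 libraries of a line as independent.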

How the results depend on the processing

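Direct knockdown contrasts of ALKBH5 kept their direction in all 78 alternatives run for 0, 8 and 12 h and across times. With a pseudocount of 0.1 the ALKBH5 change at 0 h was -1.80 (adjusted p 0.0753), leaving 0 members called. Leaving out 1 library moved it between -1.89 and -1.64, with 0 to 1 members called, and at 12 h between -2.50 and -2.23, with 0 to 1. The members called at 8 h then ran from 1 to 3, across times from 2 to 4, for the change by 8 h in shNS from 3 to 6, and between the lines from 1 to 3. With line D or line E alone, each knockdown group holds 1 library, so calls at single times and for differences of change are not read there. With line E alone ALKBH3 turned to 0.58 at 8 h. Across times 4 members were then called, while 42.1% of all genes were. Line averages left 1 member called across times, where 5.14% of all genes were. Median-of-ratios scaling removes the fall common to all genes, moving their median from -1.66 to 0.04 for the change by 8 h in shALKBH5 and from -1.15 to 0.04 in shNS, and it turned the sign of several changes over time. In shALKBH5 ALKBH6 then changed by 0.61 and ALKBH7 by 0.80 at 8 h, and by 1.11 and 0.73 at 12 h. In shNS at 8 h ALKBH5 changed by 0.0432, ALKBH3 by 0.0916, ALKBH6 by 0.48 and ALKBH7 by 0.57, and at 12 h ALKBH3 by 0.21, ALKBH6 by 0.83 and ALKBH7 by 0.46. That scaling also changed the 127 higher and 13 lower calls at 0 h to 9 and 26. With all 4 lines and replicates as a replicate block, 2 members passed for the 8 h difference, ALKBH5 and ALKBH3, among 2493 genes, and 0 for the 12 h difference, among 222. With the block for the knockdown lines only 2 passed at 8 h. The block changed no other call on a member. The number of genes called at 0 h ran from 1 to 5006 over the alternatives, and across times from 490 to 4016. The cause was not tested where a change of samples does not show it.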

Other observations

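Beyond the 4 oxygenases named above, 9 more were called across times, and they are named here after their values were seen. EGLN1, the main prolyl hydroxylase that marks hypoxia-inducible factor for degradation, fell by 0.74 across times (limma adjusted p 0.00146), while its relative EGLN2 rose by 0.52 (limma adjusted p 0.0114). Of the histone demethylases, PHF8 fell by 0.75 (limma adjusted p 0.0193), JMJD1C by 0.53 (limma adjusted p 0.0112) and KDM4C by 0.38 (limma adjusted p 0.0385). P3H1, a collagen prolyl hydroxylase, rose by 0.62 (limma adjusted p 0.00582), and the ribosomal oxygenase MINA rose by 0.53 (limma adjusted p 0.00726). OGFOD1 rose by 0.44 (limma adjusted p 0.0188) and OGFOD2 by 0.39 (limma adjusted p 0.0368). With a correlation estimated within lines 4 of the 9 were still called, EGLN1, PHF8, JMJD1C and P3H1, and with line averages only EGLN1 was (limma adjusted p 0.0136). The remaining oxygenases of the list, most histone demethylases among them, were not called.

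METTL3, the catalytic subunit that places m6A, had 52.9 in both line D and line E against 50.1 and 42.1 in shNS at 0 h, and 12.6 and 7.15 in lines D and E against 6.73 and 5.49 in shNS at 12 h. The knockdown lines lay above both shNS replicates at 0 and 12 h, and METTL3 was not called across times. Its log2 change at 0 h was 0.20, where the median of all genes was 0.23.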
